A study of Arabidopsis thaliana with 48 samples.

Results

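The genes described here encode the brassinosteroid receptor complex of Arabidopsis thaliana. They are the receptor BRI1 (AT4G39400), its relatives BRL1 (AT1G55610), BRL2 (AT2G01950) and BRL3 (AT3G13380), the co-receptors BAK1 (AT4G33430), SERK1 (AT1G71830), SERK2 (AT1G34210) and SERK4 (AT2G13790), and the inhibitor BKI1 (AT5G42750). Members were chosen by locus and by no cutoff on a measured value, but with earlier results of these data known. Each of the 9 loci was found as 1 row among 33715 entries of the count table, and all 9 passed the filter on low counts with 20995 entries tested. The lowest count of a member in a library was 2, for BRL1, and the highest was 4760, for BAK1.

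Brassinosteroids are steroid hormones of plants that are sensed at the cell surface. The hormone binds the extracellular part of BRI1, a leucine-rich repeat receptor kinase, and the bound pair recruits a SERK-family co-receptor, after which both kinases phosphorylate each other, the inhibitor BKI1 leaves the membrane, and the transcription factors BZR1 and BES1 become active. In the root this pathway is known for its part in cell elongation and meristem size, and SERK co-receptors also serve receptors for other ligands.

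The libraries hold polyribosome-associated mRNA, pulled from roots of 6-day-old seedlings through a FLAG tag on the ribosome that a chosen promoter expressed. The 8 lines were sampled before treatment and after 3 and 8 h of 100 nM BL (brassinolide), with 2 libraries per line and time, 48 in all. In the Col-0 wild type the tag was expressed from 35S (whole root), pBRN2 (root cap), pGL2 (non-hair epidermis), pSCR (endodermis) or pSHR (stele). The remaining 3 lines carry bri1-116, a loss-of-function allele of BRI1, together with a BRI1 transgene. The tag promoter comes first in their names and the promoter of the transgene stands in parentheses, giving pGL2(pGL2BRI1), pGL2(pSCRBRI1) and pSCR(pSCRBRI1). In these 3 lines a BRI1 count adds reads of the mutant gene to reads of the transgene. Whether a line stands for 1 transgenic insertion was not given in the sources used here. Libraries at 3 and 8 h have no untreated counterpart of the same age, so a BL comparison joins the hormone with elapsed time and handling. All libraries of a line share its 0 h libraries as controls, and all comparisons with whole root share the 35S libraries.

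Total counts ran from 20556381 to 37685541 per library, and marker genes were read as CPM, counts scaled to the library size, to check the labelled tissues. The summed root cap markers lay between 2347 and 4070 CPM in pBRN2 and at or below 384 CPM in the other lines. The endodermis sum was 5828 to 12310 CPM in pSCR and the stele sum 1526 to 2122 CPM in pSHR. GL2 itself, the gene whose promoter drives the tag, was at 57.9 to 256 CPM in pGL2 and 2.28 to 6.43 CPM in pBRN2. The non-hair epidermis sum of 163 to 411 CPM in pGL2 overlapped with that of pBRN2, at 88.1 to 214 CPM. WER, from the same list, was at 55.45 to 103.9 CPM in pGL2 and 80.5 to 206.8 CPM in pBRN2. The 6 libraries labelled pGL2(pSCRBRI1) went against their label, because GL2 was at 1.17 to 2.23 CPM and SCR at 202 to 260 CPM, with endodermis sums of 4518 to 7248 CPM and non-hair epidermis sums of 5.05 to 7.98 CPM. They are written below as the libraries labelled pGL2(pSCRBRI1), and results that rest on them are given with and without them. In pGL2(pGL2BRI1) the endodermis sum was 1940 CPM at 0 h in replicate 2, 903 CPM at 3 h in replicate 1 and 2177 CPM at 8 h in replicate 2, against 110 to 162 CPM in its other libraries. The libraries of high sum in this line lack a label note on trimmed reads, described with the processing, which the line's other libraries carry. In the 35S libraries the green tissue sum reached 414 CPM at 3 h in replicate 1 and 543 CPM at 8 h in replicate 2, from a lowest value of 37.7 CPM.

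Promoter windows are shown for 4 members because BRI1, BRL3 and SERK4 passed a test of the BL response below and BAK1 is the member whose window holds a brassinosteroid response element. Each window is the 250 bases before the gene start in RefSeq's annotation of TAIR10.1, written 5′ to 3′ on the gene's strand, with motif matches in capitals.
BRI1, chr4:18324207-18324456, + strand: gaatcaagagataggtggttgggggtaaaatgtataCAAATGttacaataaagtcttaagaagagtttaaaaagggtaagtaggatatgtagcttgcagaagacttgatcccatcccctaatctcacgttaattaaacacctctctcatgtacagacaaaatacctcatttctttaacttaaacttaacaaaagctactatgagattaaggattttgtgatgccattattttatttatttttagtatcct
BRL3, chr3:4346080-4346329, + strand: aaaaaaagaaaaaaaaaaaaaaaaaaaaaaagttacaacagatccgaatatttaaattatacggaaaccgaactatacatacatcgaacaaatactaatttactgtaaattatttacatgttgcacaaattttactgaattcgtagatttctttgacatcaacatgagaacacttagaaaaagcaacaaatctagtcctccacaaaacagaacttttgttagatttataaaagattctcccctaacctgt
SERK4, chr2:5741342-5741591, + strand: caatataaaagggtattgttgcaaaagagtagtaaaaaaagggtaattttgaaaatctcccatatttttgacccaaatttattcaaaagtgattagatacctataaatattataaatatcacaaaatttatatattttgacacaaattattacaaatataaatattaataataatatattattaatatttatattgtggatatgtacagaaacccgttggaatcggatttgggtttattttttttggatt
BAK1, chr4:16090833-16091082, - strand: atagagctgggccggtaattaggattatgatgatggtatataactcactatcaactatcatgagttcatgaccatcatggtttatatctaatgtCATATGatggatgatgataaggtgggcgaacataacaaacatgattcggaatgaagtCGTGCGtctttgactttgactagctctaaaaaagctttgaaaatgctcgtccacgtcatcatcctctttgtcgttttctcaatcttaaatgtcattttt
The motifs searched on both strands were CGTGTG and CGTGCG, the core forms of the brassinosteroid response element bound by BZR1, the G-box CACGTG, and the E-box CANNTG, which covers every G-box. Of 27443 such windows in the genome, 5.37% held CGTGTG, 1.57% CGTGCG, 6.49% CACGTG and 55.3% CANNTG. Among the 9 members the BAK1 window held CGTGCG, starting 99 bases before the gene start. An E-box was found in the windows of BRI1, BRL1, BRL2 and BAK1. The windows of BRL3, SERK1, SERK2, SERK4 and BKI1 held none of these letters, and no member's window held CGTGTG or CACGTG.

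The first question was where in the root each member was represented on ribosomes. BRI1 was highest in the root cap line, BRL2 in the stele line, BAK1 and SERK4 in the non-hair epidermis line, and BKI1 was lowest in the non-hair epidermis line. Counts were tested with edgeR's quasi-likelihood test with p-values adjusted over all genes tested in a comparison (Benjamini-Hochberg), with 0.05 as the threshold for an adjusted p to pass. At 0 h the 4 tissue lines gave 36 member tests against whole root, of which 18 passed, beside 37.7% of tests over all genes. Of the member tests 5 passed as higher and 13 as lower, beside 15.3% and 22.4% over all genes. With each line averaged over its 3 times, 70 of 90 member tests among the 5 Col-0 lines passed, beside 67.6% over all genes, so the members as a set passed about as often as other genes. Over all genes 69.2% passed between pBRN2 and pGL2, 72.7% between pBRN2 and pSCR, 75.3% between pBRN2 and pSHR, 67.0% between pGL2 and pSCR, 79.7% between pGL2 and pSHR, and 61.3% between pSCR and pSHR. In bulk material fewer cells of a type and less RNA per cell cannot be told apart. The labels call the paired libraries biological repetitions without naming separate plants, so p-values measure the spread between these libraries.

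**Figure D1:**
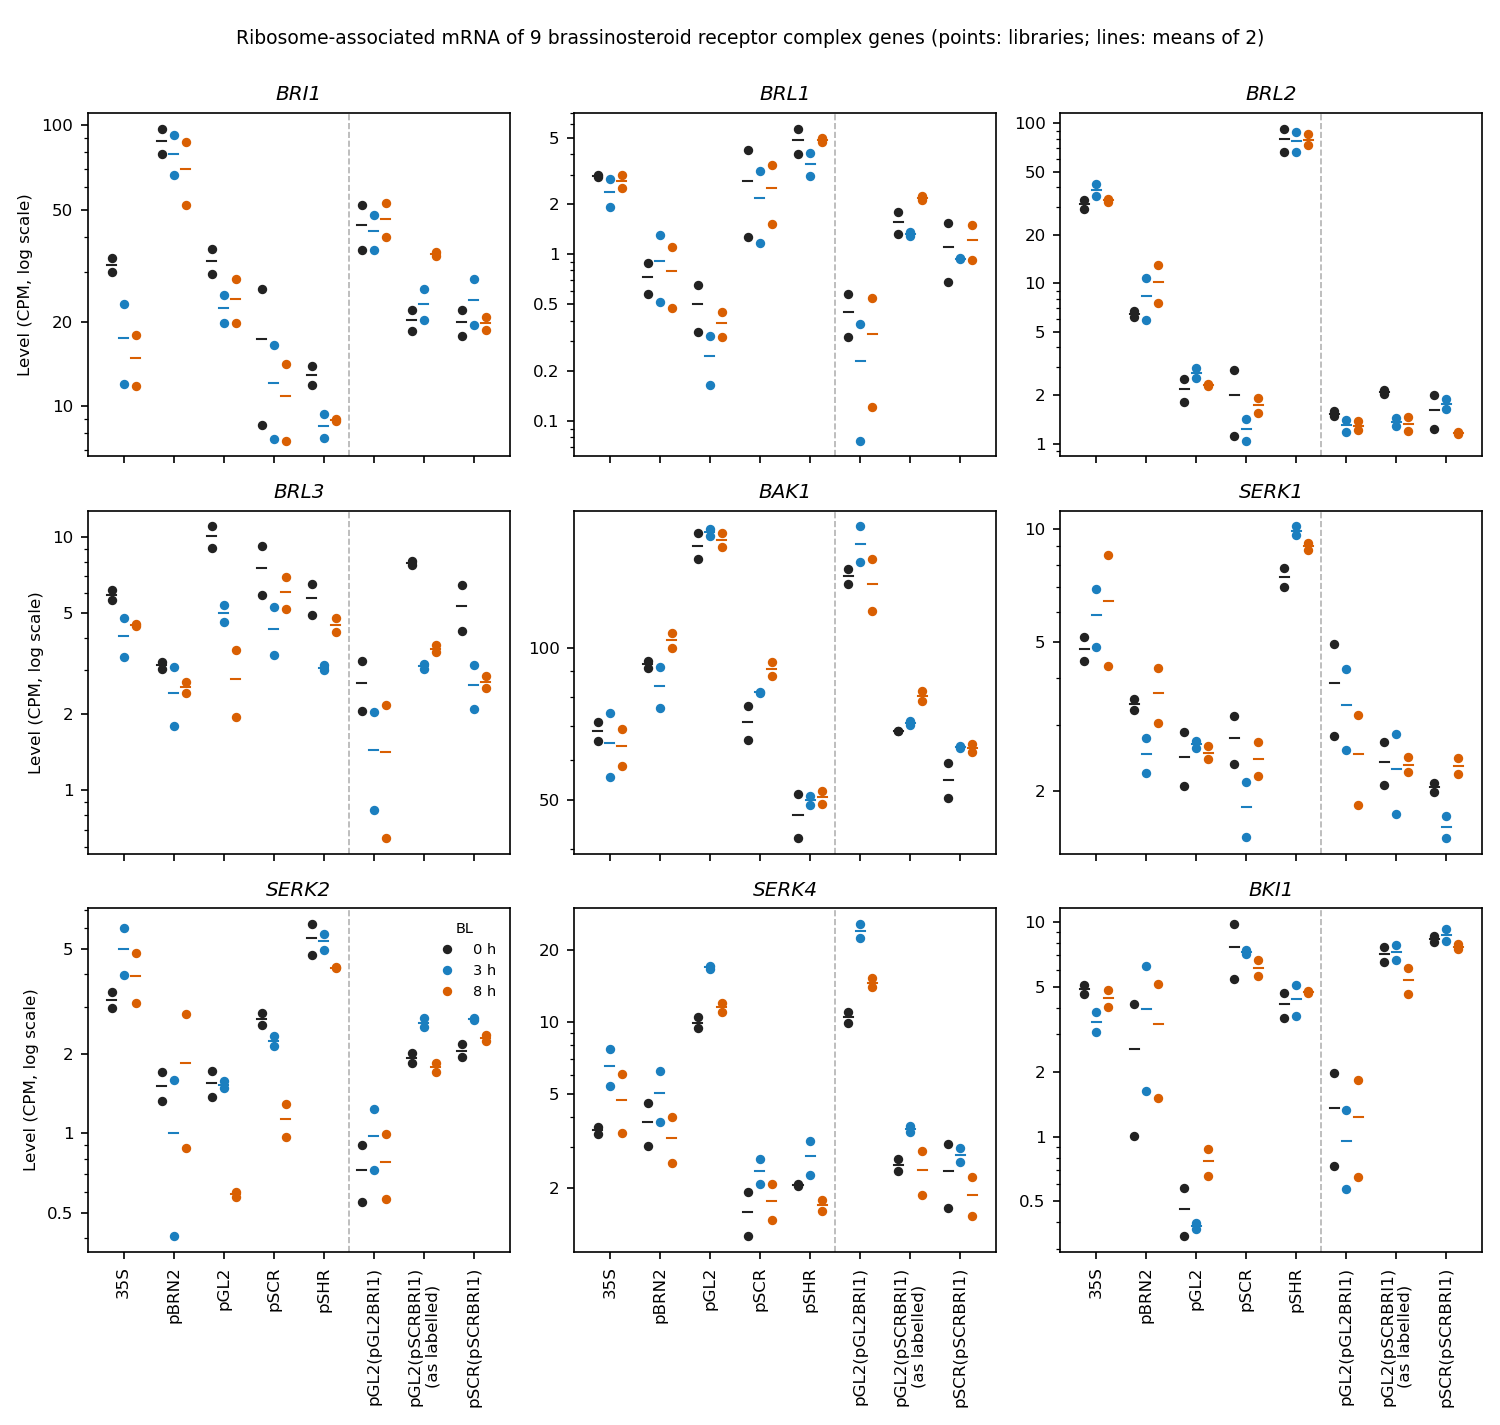
Levels of the 9 members in each library (CPM on library sizes scaled by edgeR's TMM method, log scale), by line and time of BL treatment, with lines at means of 2 libraries and the bri1-116 lines right of the dashed line. BRI1 is highest in pBRN2 (52.0 to 97.2 CPM), BRL2 in pSHR (66.1 to 92.7 CPM), and BKI1 lowest in pGL2 (0.344 to 0.877 CPM).

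BRI1, the main brassinosteroid receptor (chromosome 4, 18324661 to 18328826, TAIR10), had a lowest, median and highest level of 52.0, 83.1 and 97.2 CPM over the 6 pBRN2 libraries. The same 3 values were 19.7, 26.6 and 36.1 CPM in pGL2. They were 11.8, 20.5 and 33.7 CPM in 35S. All pBRN2 libraries lay above all libraries of the other Col-0 lines. The values in pSCR were 7.53, 11.4 and 26.1 CPM, and in pSHR 7.69, 9.18 and 13.9 CPM, so these lines overlapped with each other. Over the 3 times BRI1 was 1.96 ± 0.23 (log2 change ± SE, 6 against 6 libraries) higher in pBRN2 than in 35S and 1.59 ± 0.23 higher than in pGL2. The next steps of the order, pGL2 over 35S (0.36 ± 0.22, adjusted p = 0.148) and pSCR over pSHR (0.40 ± 0.23, adjusted p = 0.128), did not pass, although pGL2 over 35S passed with DESeq2 (adjusted p = 0.0489). The step from 35S down to pSCR passed at 0.63 ± 0.23 (adjusted p = 0.0193). It missed with the note on 51-base reads as a term (adjusted p = 0.169), in a fit of these lines alone (0.115), and without 35S at 3 h replicate 2, 35S at 8 h replicate 1, or replicate 1 of pSCR at 0, 3 or 8 h (up to 0.124), and it grew to 0.97 without pSCR at 0 h replicate 2. In pSCR replicate 1 gave 8.56, 7.67 and 7.53 CPM at 0, 3 and 8 h, and replicate 2 gave 26.1, 16.5 and 14.2 CPM. The endodermis sum of the same libraries was 5828, 7664 and 10840 CPM in replicate 1 and 7238, 8951 and 12310 CPM in replicate 2, and its part in the BRI1 values was not tested.

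BRL2, a relative of BRI1, had the widest range among the receptors (chromosome 2, 440636 to 444276). Its lowest, median and highest levels were 66.1, 79.1 and 92.7 CPM in pSHR and 29.3, 33.6 and 41.8 CPM in 35S. In pBRN2 they were 5.95, 7.14 and 12.99 CPM. The pGL2 and pSCR libraries lay between 1.04 and 2.98 CPM. No pSHR library overlapped with any other line, and all 10 pairs of Col-0 lines passed. BRL2 was 1.20 ± 0.16 higher in pSHR than in 35S and 5.58 ± 0.20 lower in pSCR than in pSHR on the log2 scale. The difference between pGL2 and pSCR (0.56 ± 0.19, adjusted p = 0.0108) missed without pSCR at 0 h replicate 2 (0.37, adjusted p = 0.0715) and in a fit of these lines alone (0.0611).

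BRL1, which binds brassinosteroids like BRI1, was counted with few reads (2 to 219 per library; chromosome 1, 20779874 to 20783374, an entry that spans the coding part). It ranged from 2.96 to 5.66 CPM in pSHR, 1.92 to 3.00 CPM in 35S, 1.17 to 4.24 CPM in pSCR, 0.478 to 1.30 CPM in pBRN2 and 0.165 to 0.656 CPM in pGL2. The pGL2 libraries lay below all 35S, pSCR and pSHR libraries. BRL1 was 2.88 ± 0.37 lower in pGL2 and 1.71 ± 0.33 lower in pBRN2 than in 35S on the log2 scale. Its excess in pSHR over 35S (0.69 ± 0.30, adjusted p = 0.047) missed without any 1 of 10 of the 12 libraries, all but pSHR at 0 h replicate 2 and 3 h replicate 2. It also missed with no filter on low counts (0.0553), with a stricter filter (0.0514), with the replicate number as a block (0.0514) and without the libraries labelled pGL2(pSCRBRI1) (0.0664). In pSCR the replicates stood apart in the opposite sense to BRI1, with higher BRL1 in replicate 1 at each time.

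BRL3, the third brassinosteroid-binding receptor (chromosome 3, 4346557 to 4350923), differed least among tissues. Its medians were 5.58 CPM in pSCR, 5.002 in pGL2, 4.67 in 35S, 4.51 in pSHR and 2.84 in pBRN2. Of 10 pairs of Col-0 lines over the 3 times, the 4 that involve pBRN2 passed, each lower in pBRN2 (by 0.82 ± 0.22 on the log2 scale against 35S). The 6 pairs among the other lines did not pass in the main fit. Of these, pSCR over pSHR (0.45 on the log2 scale, adjusted p = 0.0662) passed under several alternatives. They include DESeq2 (adjusted p = 0.0274), edgeR with no filter on low counts (0.0387) and an edgeR fit of these lines alone (0.0162).

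Among the co-receptors, BAK1, which also partners immune receptors such as FLS2, had the highest level in pGL2 (chromosome 4, 16086311 to 16090777). Its lowest, median and highest values were 150, 168 and 172 CPM in pGL2. In pBRN2 they were 75.9, 92.9 and 107 CPM, in pSCR 65.8, 81.6 and 93.5 CPM, and in 35S 55.5, 67.3 and 74.3 CPM. In pSHR they were 41.9, 50.0 and 52.1 CPM. The pGL2 libraries lay above and the pSHR libraries below those of every other Col-0 line. All 10 pairs passed, with pGL2 1.32 ± 0.09 and pSHR −0.42 ± 0.09 relative to 35S on the log2 scale. The step between pBRN2 and pSCR (0.20 ± 0.09, adjusted p = 0.0387) missed without any 1 of 7 libraries, namely pBRN2 at 0 h (either), 3 h replicate 1 or 8 h replicate 1, and replicate 2 of pSCR at each time (adjusted p up to 0.135), and under several other settings, with an adjusted p of up to 0.298.

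SERK4, also known as BKK1 for its role beside BAK1 in restraining cell death, lies on chromosome 2 at 5741820 to 5746793 next to its close paralog SERK5. How reads shared by paralogs were counted was not given in the sources used here. The lowest, median and highest SERK4 levels were 9.42, 11.5 and 17.1 CPM in pGL2. In 35S they were 3.39, 4.50 and 7.70 CPM and in pBRN2 2.55, 3.89 and 6.23 CPM. The pSHR and pSCR libraries lay between 1.26 and 3.17 CPM. No pGL2 library overlapped with another Col-0 line. SERK4 was 1.39 ± 0.17 higher in pGL2 than in 35S and 2.72 ± 0.19 higher than in pSCR. The steps from 35S to pBRN2 and from pSHR to pSCR did not pass. SERK5 moved in the same directions in pGL2 (0.68 ± 0.16), pSCR (−0.56 ± 0.17) and pSHR (−0.68 ± 0.16) but was higher in pBRN2 than in 35S (0.42 ± 0.16).

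SERK1 and SERK2, co-receptors that act together in anther development and also in this pathway, were highest in the stele line. SERK1 (chromosome 1, 27018158 to 27022117) ranged from 7.02 to 10.2 CPM in pSHR, 4.31 to 8.54 CPM in 35S and 1.51 to 4.26 CPM in the other 3 Col-0 lines. SERK1 was 0.62 ± 0.18 higher in pSHR and 0.84 ± 0.18 to 1.30 ± 0.19 lower in pBRN2, pGL2 and pSCR than in 35S on the log2 scale. SERK2 (chromosome 1, 12458670 to 12462905) ranged from 4.24 to 6.21 CPM in pSHR and from 2.97 to 6.02 CPM in 35S, which did not pass against each other (0.32 ± 0.21). SERK2 was lower than in 35S by 1.06 ± 0.23 in pSCR, 1.48 ± 0.23 in pBRN2 and 1.83 ± 0.24 in pGL2 on the log2 scale, and these 3 lines overlapped.

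BKI1, the inhibitor that binds the BRI1 kinase at the plasma membrane and keeps it from the co-receptor until the hormone arrives (chromosome 5, 17142820 to 17144160), had its lowest levels in pGL2. Its lowest, median and highest values were 0.344, 0.486 and 0.877 CPM in pGL2. They were 5.46, 6.88 and 9.81 CPM in pSCR, 3.59, 4.67 and 5.10 CPM in pSHR, and 3.06, 4.33 and 5.11 CPM in 35S. No pGL2 library overlapped with another Col-0 line. BKI1 was 3.03 ± 0.37 lower in pGL2 than in 35S and 3.76 ± 0.37 lower than in pSCR on the log2 scale. The pBRN2 libraries split by replicate, with 1.01, 1.64 and 1.51 CPM in replicate 1 and 4.14, 6.23 and 5.17 CPM in replicate 2 at 0, 3 and 8 h. Root cap sums in those libraries were 3658, 3750 and 4070 CPM in replicate 1 and 3150, 2428 and 2347 CPM in replicate 2, whose part was not tested. The pBRN2 difference from 35S did not pass (−0.37 ± 0.30, adjusted p = 0.284) but passed without replicate 2 of pBRN2 at any 1 of the 3 times, reaching −0.82. The excess of pSCR over 35S (0.73 ± 0.30, adjusted p = 0.037) missed without any 1 of 8 libraries, namely 35S at 0 h (either), 3 h replicate 1 or 8 h replicate 2, and pSCR at 0 h replicate 2, 3 h (either) or 8 h replicate 2 (adjusted p up to 0.135).

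**Figure D2:**
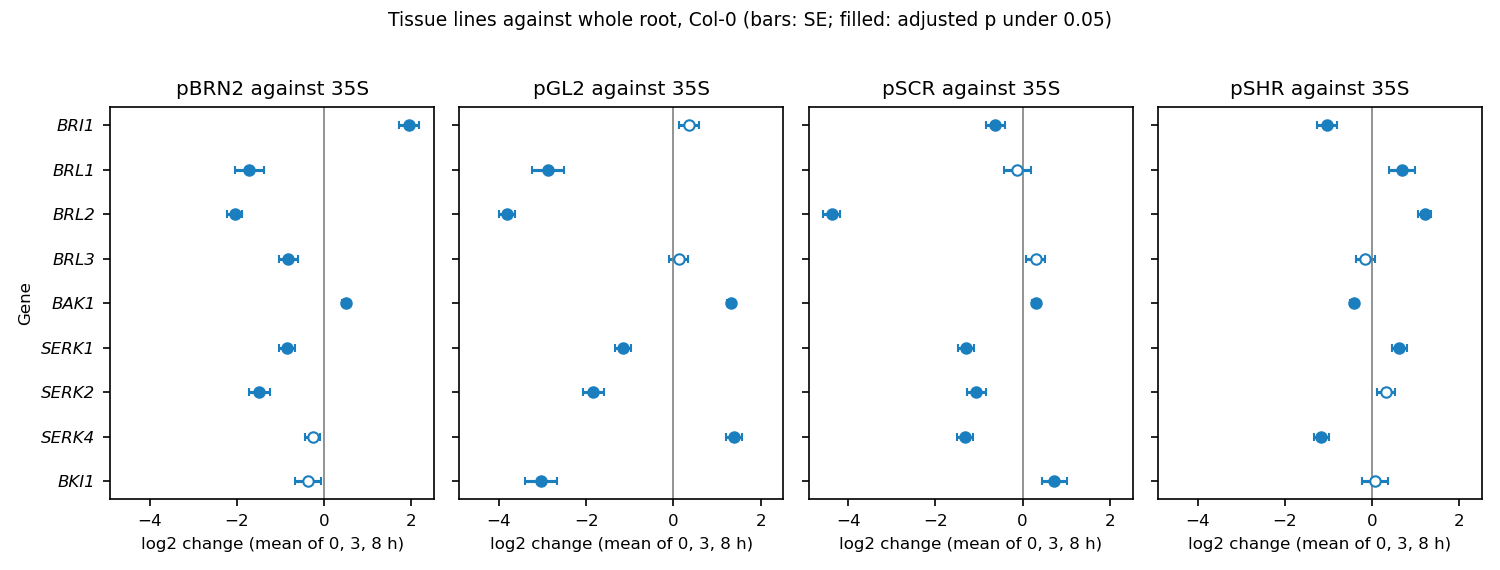
Log2 change of each member in the 4 tissue lines against whole root (35S), over the 3 times, with SE bars; filled points passed at an adjusted p under 0.05. BRL2 spans from −4.38 in pSCR to 1.20 in pSHR, while BRL3 stays between −0.82 and 0.30.

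Per line against 35S over the 3 times, 7 members passed in pBRN2 (2 higher, 5 lower), 7 in pGL2 (2 higher, 5 lower), 7 in pSCR (2 higher, 5 lower) and 6 in pSHR (3 higher, 3 lower), beside 64.7%, 71.2%, 57.1% and 58.1% of all genes tested. Over all genes the shares higher and lower were 27.1% and 37.6% in pBRN2, 31.8% and 39.3% in pGL2, 23.8% and 33.2% in pSCR, and 27.3% and 30.8% in pSHR. Green tissue sums reached 543 CPM in 35S and at most 50.05 CPM in the tissue lines. Without the 2 35S libraries of high sum, 69 in place of 70 of the 90 member tests over 3 times passed. BRL1 in pSHR (adjusted p = 0.0918) and BKI1 in pSCR (0.0698) then missed, and SERK2 in pSHR passed (0.62, adjusted p = 0.0375). SERK1 then stood at −0.47 in pBRN2, −0.75 in pGL2 and 0.98 in pSHR, and SERK2 at −0.71 in pSCR, each still passing. At 0 h alone the 6 calls of pBRN2 included BRL3, BAK1 and SERK2, each of which missed without any 1 of the 4 libraries (41.0% of genes passed). At 0 h pGL2 and 35S gave a SERK2 call that missed in the same way and a SERK1 call that missed without replicate 1 of either line (48.9% of genes passed). At 0 h BRI1 in pSHR was 1.31 ± 0.40 lower than in 35S on the log2 scale, a call that missed without 35S replicate 1 or either pSHR library (26.6% of genes passed).

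To compare genes with each other, CPM values were divided by coding length in kilobases and summed within a library. The BRL1 entry spans the coding part, and the entries of the other members span more than their coding length. Levels per length therefore compare genes only roughly. Of the summed level of the 4 receptors, BRI1 made up 74.9% to 90.3% in pBRN2 and 71.1% to 85.5% in pGL2. The share of BRI1 was 33.7% to 75.4% in pSCR, 21.4% to 46.0% in 35S and 7.14% to 13.1% in pSHR. BRL2 held 76.9% to 86.2% of the receptor sum in pSHR and 41.9% to 66.1% in 35S. The leading receptor per length thus was BRI1 in each pBRN2 and pGL2 library and BRL2 in each pSHR library. BAK1 made up 71.6% to 94.2% of the summed co-receptors in every library. The ratio of the co-receptor sum to the receptor sum was 6.57 to 12.8 in pGL2, 3.82 to 8.93 in pSCR, 1.89 to 2.59 in 35S, 1.70 to 2.90 in pBRN2 and 1.00 to 1.51 in pSHR. The pGL2 ratio had a median of 9.78 and the pSHR ratio a median of 1.13. The receptor sum in pSHR was mostly BRL2, which is not described here as binding brassinosteroids. No ratio without BRL2 was computed, so the ratios do not compare brassinosteroid-binding receptors alone. The per-length ratio of BKI1 to BRI1 was 1.33 to 3.27 in pSCR and 0.0411 to 0.118 in pGL2, with no overlap. These shares and ratios are descriptions and carry no test.

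**Figure D3:**
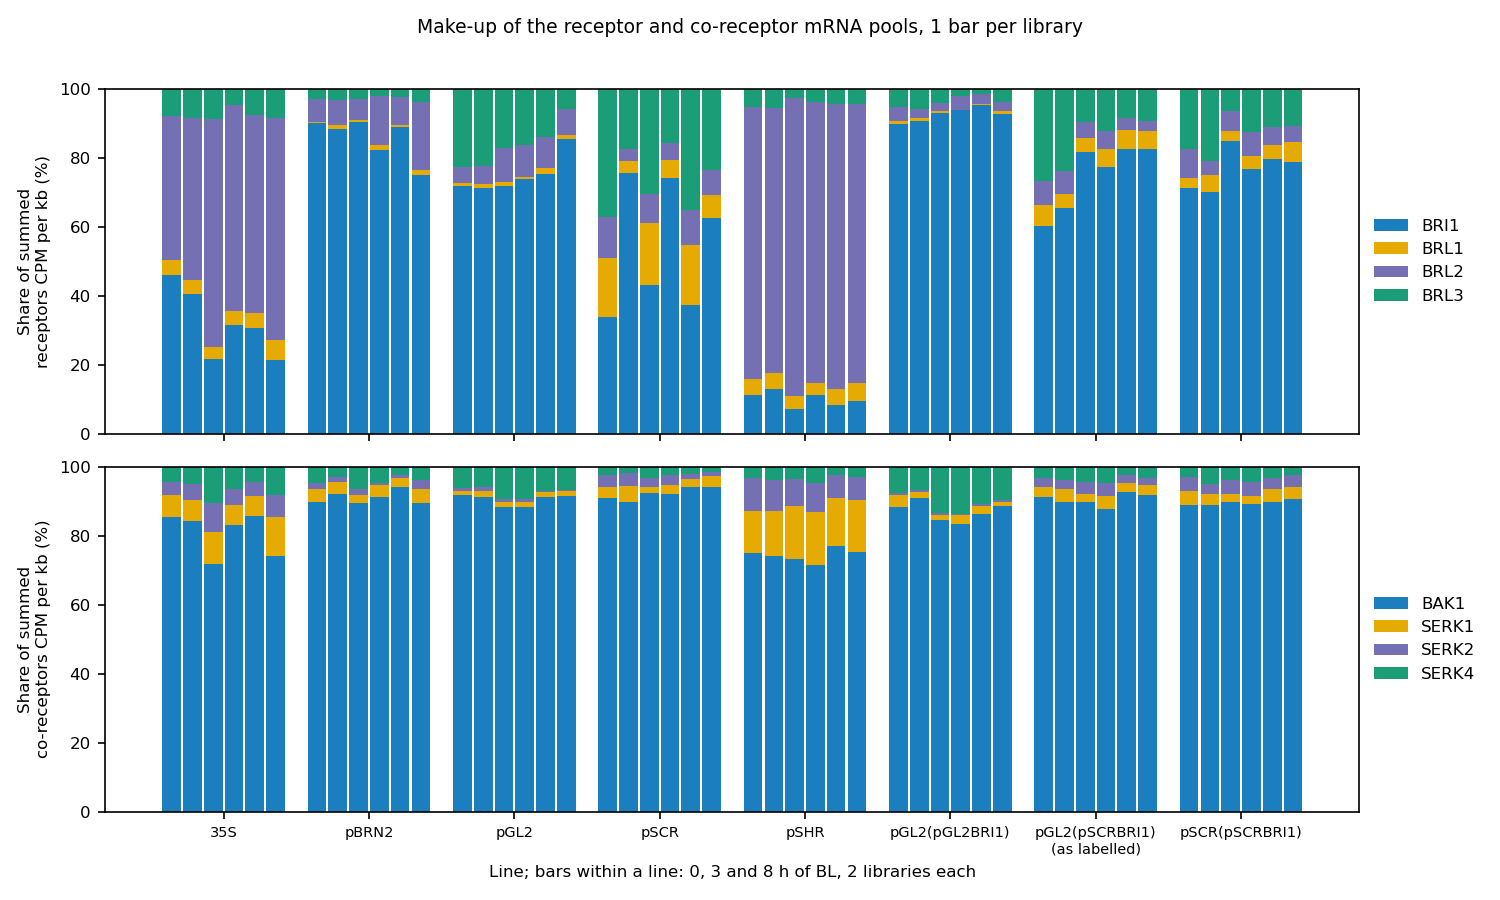
Share of each receptor in the summed per-kilobase level of the 4 receptors (upper panel, percent) and of each co-receptor in that of the 4 co-receptors (lower panel, percent), stacked, with 1 bar per library. BRI1 fills 71.1% to 90.3% of the bars of pBRN2 and pGL2, and BRL2 fills 76.9% to 86.2% of those of pSHR, and BAK1 fills 71.6% to 94.2% of each lower bar.

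The second question was how the members responded to BL. BRL3 fell and SERK4 rose at 3 h in the average over Col-0 lines, and BRL3 was still lower at 8 h. BRI1 also passed as lower at both times in the Col-0 lines, by a smaller margin over its error. In single lines 2 of 144 member tests passed, beside 0.764% of tests over all genes. They were BRL3 in pGL2 at 8 h and SERK4 in pGL2(pGL2BRI1) at 3 h. Tests of 2 against 2 libraries can miss changes of this kind, since 21 of 100 simulated log2 changes of 1 were recovered.

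BRL3 in pGL2 was at 9.08 and 11.0 CPM at 0 h, 4.63 and 5.38 CPM at 3 h, and 3.57 and 1.95 CPM at 8 h. In pSHR it went from 6.55 and 4.92 CPM at 0 h to 2.98 and 3.12 CPM at 3 h. In the libraries labelled pGL2(pSCRBRI1) it went from 8.02 and 7.79 CPM to 3.02 and 3.15 CPM. BRL3 was lower than at 0 h in 8 of 8 lines at both times, and its libraries did not overlap in 7 of 8 lines at 3 h and 6 of 8 at 8 h. These counts include the libraries labelled pGL2(pSCRBRI1) and were not computed over all genes, so they are descriptions. In pGL2 at 8 h BRL3 fell by 1.86 ± 0.38 on the log2 scale (adjusted p = 0.00457, 3.87% of genes passed), a call that missed without replicate 2 of pGL2 at 0 h or at 8 h (adjusted p up to 0.195). Averaged over the 5 Col-0 lines BRL3 fell by 0.72 ± 0.17 at 3 h (adjusted p = 0.00447) and by 0.64 ± 0.17 at 8 h (adjusted p = 0.0129). Both averages passed under each alternative and without each library. Over the 3 bri1-116 lines BRL3 fell by 1.10 ± 0.22 at 3 h (adjusted p = 0.00398) and by 1.02 ± 0.22 at 8 h (adjusted p = 0.011). Without the libraries labelled pGL2(pSCRBRI1) the values of the bri1-116 lines missed, with adjusted p of 0.111 and 0.205. At 8 h the bri1-116 call also missed in a fit of these lines alone (0.0866) and without pGL2(pGL2BRI1) at 0 h replicate 2 or 8 h replicate 1 (up to 0.0634). Without the 3 pGL2(pGL2BRI1) libraries of high endodermis sum the values were −1.22 at 3 h (adjusted p = 0.00313) and −1.26 at 8 h (0.00222).

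SERK4 was at 9.42 and 10.5 CPM at 0 h, 17.1 and 16.8 CPM at 3 h, and 12.1 and 11.0 CPM at 8 h in pGL2. In pGL2(pGL2BRI1) it went from 11.0 and 9.93 CPM at 0 h to 25.8 and 22.6 CPM at 3 h and 14.0 and 15.2 CPM at 8 h. SERK4 was higher at 3 h than at 0 h in 8 of 8 lines, with no overlap of libraries in 6, and higher at 8 h in 4 of 8. As for BRL3, such counts were not computed over all genes. In pGL2(pGL2BRI1) at 3 h it rose by 1.21 ± 0.29 on the log2 scale (adjusted p = 0.0197, 2.72% of genes passed). That call missed without any 1 of the 4 libraries (adjusted p up to 0.189), without both libraries of high endodermis sum (1.03, adjusted p = 0.484) and in a fit of these groups alone (0.0646). Over the 5 Col-0 lines SERK4 rose by 0.61 ± 0.14 at 3 h (adjusted p = 0.00435), which held under each alternative and without each library, and was at 0.06 ± 0.14 at 8 h (adjusted p = 0.841). Over the 3 bri1-116 lines it rose by 0.64 ± 0.18 at 3 h (adjusted p = 0.0352), which missed without the libraries labelled pGL2(pSCRBRI1) (0.0923), without the pGL2(pGL2BRI1) libraries of high endodermis sum (0.165) and without any 1 of 10 of the 12 libraries, all but pSCR(pSCRBRI1) at 0 h replicate 2 and 3 h replicate 1. Over all 8 lines, an average added after the data were seen, SERK4 was lower at 8 h than at 3 h by 0.57 ± 0.11 on the log2 scale (adjusted p = 0.00106, 6.86% of genes passed). Its neighbour SERK5 was at −0.09 ± 0.13 at 3 h in the Col-0 lines (adjusted p = 0.731).

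BRI1 in whole root was at 33.7 and 30.0 CPM at 0 h, 12.0 and 23.0 CPM at 3 h, and 17.9 and 11.8 CPM at 8 h. Its lowest values, 12.0 CPM at 3 h and 11.8 CPM at 8 h, were in the libraries with green tissue sums of 414 and 543 CPM, against 37.7 to 92.8 CPM in the other 35S libraries. In pBRN2 it was at 97.2 and 79.0 CPM, then 91.8 and 66.2 CPM, then 87.2 and 52.0 CPM, so the times overlapped. In pGL2 it was at 29.6 and 36.1 CPM, then 19.8 and 24.9 CPM, then 19.7 and 28.3 CPM, below 0 h in each case. Over the 5 Col-0 lines BRI1 fell by 0.53 ± 0.17 at 3 h on the log2 scale (adjusted p = 0.0439) and by 0.62 ± 0.17 at 8 h (adjusted p = 0.0225). The 3 h call rested on most libraries, since it missed without any 1 of 16 of the 20 (adjusted p 0.0513 to 0.211), the other 4 being 35S at 3 h replicate 2, pBRN2 at 3 h replicate 1, pSCR at 0 h replicate 1 and pSCR at 3 h replicate 2. The 8 h call missed without 35S at 8 h replicate 2, pSCR at 0 h replicate 2 or pSCR at 8 h replicate 1 (up to 0.112). Without pSCR at 0 h replicate 2 the values were −0.33 and −0.41. Without the 2 35S libraries of high green tissue sum the values were −0.46 at 3 h, which missed (adjusted p = 0.0734), and −0.56 at 8 h (0.0333). The 3 h call also missed with no filter (0.072), without the libraries labelled pGL2(pSCRBRI1) (0.0614) and in a fit of these lines alone (0.0794). Over the 3 bri1-116 lines, where transgene reads are included, BRI1 was at 0.13 ± 0.22 at 3 h (adjusted p = 0.829) and 0.28 ± 0.22 at 8 h (adjusted p = 0.701). These averages include the libraries labelled pGL2(pSCRBRI1), where mean BRI1 was 20.2 CPM at 0 h and 34.8 CPM at 8 h. The same means were 44.0 and 46.3 CPM in pGL2(pGL2BRI1) and 19.9 and 19.7 CPM in pSCR(pSCRBRI1).

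In the Col-0 average 3 of 9 members passed at 3 h and 2 at 8 h, beside 11.6% and 9.63% of all genes. In the bri1-116 average 2 of 9 passed at 3 h and 1 at 8 h, beside 4.04% and 1.68%. The other members did not pass in either average. BAK1 was at 0.03 ± 0.07 (95% interval −0.11 to 0.17) at 3 h and 0.11 ± 0.07 (−0.03 to 0.25) at 8 h in the Col-0 lines, the narrowest intervals of the 9. SERK2 was at −0.48 ± 0.18 at 8 h (adjusted p = 0.0941) and passed without pBRN2 at 8 h replicate 2 (−0.70, adjusted p = 0.00842). Differences in response between lines were tested in 234 member tests, and edgeR called 0 of them, beside 0.0185% of tests over all genes. At an unadjusted p under 0.05 there were 17, and DESeq2 called 0. For BRI1, the response in pGL2 and pSCR minus that in the bri1-116 lines with the same tag promoter was −0.63 (95% interval −1.42 to 0.17) at 3 h and −0.60 (−1.39 to 0.20) at 8 h, both with an adjusted p of 1. These intervals reach from a BRI1 response well below that of the bri1-116 lines to one slightly above it.

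**Figure D4:**
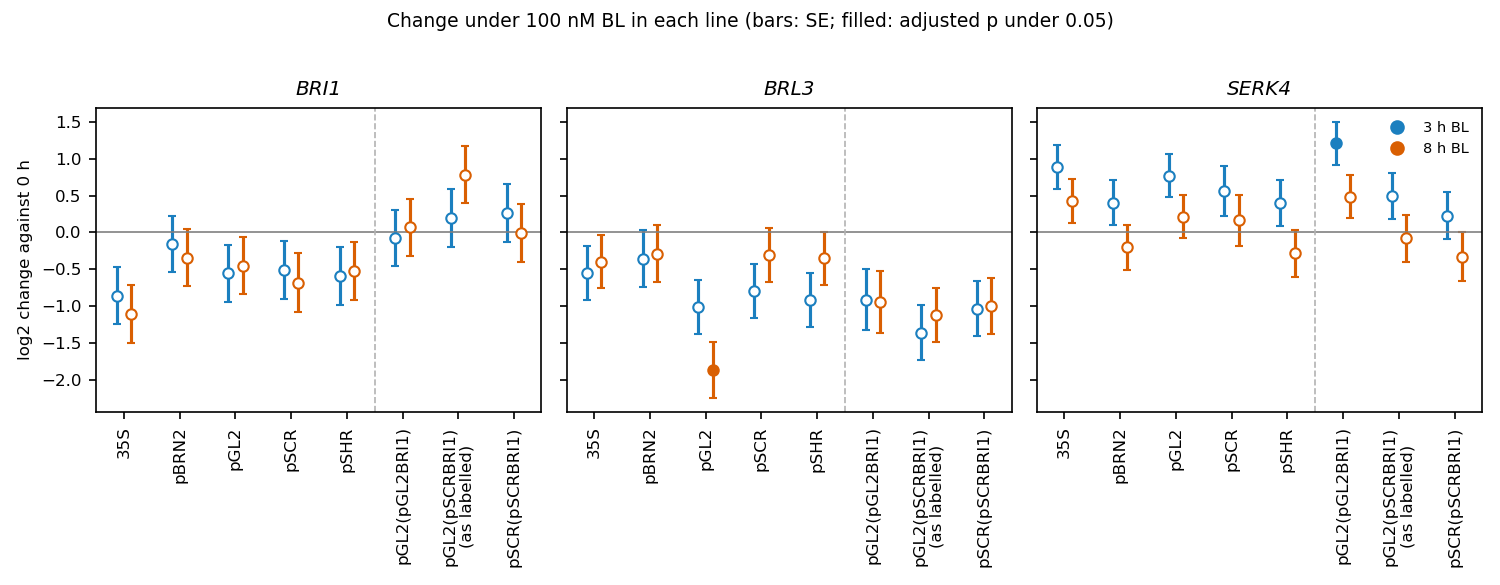
Log2 change of BRI1, BRL3 and SERK4 at 3 h and 8 h of 100 nM BL against 0 h in each of the 8 lines, with SE bars; filled points passed at an adjusted p under 0.05 and the dashed line separates Col-0 lines from bri1-116 lines. BRL3 lies below 0 in all 16 comparisons, and SERK4 lies above 0 at 3 h in all 8 lines.

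The third question was how the bri1-116 lines differed from Col-0 lines with the same tag promoter. BRL3 was lower in pGL2(pGL2BRI1) than in pGL2 and in pSCR(pSCRBRI1) than in pSCR over the 3 times. BRI1 counts, to which the transgene adds reads, passed as higher in both, but neither call held under every alternative. The libraries labelled pGL2(pSCRBRI1) were set against pSCR and pSCR(pSCRBRI1), the lines that share their high endodermis sums. Over all these comparisons 14 of 144 member tests passed, beside 7.92% of tests over all genes. Without the comparisons that use the labelled libraries 11 of 72 passed, beside 11.0% over all genes. BRI1 was at 35.9, 43.8 and 52.7 CPM (lowest, median, highest) in pGL2(pGL2BRI1), and 4 of its 6 libraries lay above every pGL2 library. Its 3 highest values, 52.1 CPM at 0 h in replicate 2, 47.8 CPM at 3 h in replicate 1 and 52.7 CPM at 8 h in replicate 2, were in the 3 libraries with high endodermis sums, and the others were at 36.0, 35.9 and 39.8 CPM. The same 3 libraries are those of this line without the note on 51-base reads. In pSCR(pSCRBRI1) BRI1 was at 17.7, 20.1 and 28.4 CPM, and in the libraries labelled pGL2(pSCRBRI1) at 18.5, 24.0 and 35.3 CPM. Over the 3 times BRI1 was 0.76 ± 0.22 higher in pGL2(pGL2BRI1) than in pGL2 (adjusted p = 0.00917) and 0.68 ± 0.23 higher in pSCR(pSCRBRI1) than in pSCR (adjusted p = 0.0392). Without the 3 libraries of high endodermis sum the first value was 0.50 and missed (adjusted p = 0.168). The second call missed without any 1 of 8 libraries, namely replicate 1 of pSCR at each time and each pSCR(pSCRBRI1) library but 3 h replicate 2 (adjusted p up to 0.166). It also missed with no filter (0.0594), with the note on 51-base reads as a term (0.0787), without the libraries labelled pGL2(pSCRBRI1) (0.0526) and in a fit of these lines alone (0.142). The libraries labelled pGL2(pSCRBRI1) exceeded pSCR by 0.95 ± 0.23 (adjusted p = 0.008), which missed in a fit of these lines alone (0.0748).

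BRL3 was at 0.646, 2.05 and 3.26 CPM in pGL2(pGL2BRI1), against 1.95, 5.002 and 11.0 CPM in pGL2. At 0 h its 2.06 and 3.26 CPM lay below both pGL2 libraries, a log2 difference of −1.91 ± 0.41 (adjusted p = 0.00171, 11.4% of genes passed). Over the 3 times the difference was −1.58 ± 0.23 (adjusted p = 6.02e-06, 35.7% of genes passed), and both calls held under each alternative and without each library. BRL3 was also higher at each time in the library of high endodermis sum, and without those 3 libraries the difference was −2.33 over the 3 times (adjusted p = 1.73e-07). In pSCR(pSCRBRI1) BRL3 was at 2.099, 2.97 and 6.44 CPM, against 3.42, 5.58 and 9.19 CPM in pSCR, and the difference of −0.81 ± 0.22 (adjusted p = 0.0101, 15.4% of genes passed) missed without pSCR at 3 h replicate 1 (0.0508). In the libraries labelled pGL2(pSCRBRI1) BRL3 differed from pSCR by −0.39 ± 0.21, with an adjusted p of 0.298 and 7.8% of genes passing.

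BRL2, BRL1 and BKI1 differed in 1 line pair each and BAK1 in 2. BRL2 was 0.81 ± 0.20 lower in pGL2(pGL2BRI1) than in pGL2 on the log2 scale (adjusted p = 0.0019), with 1.19 to 1.60 CPM against 1.82 to 2.98 CPM and no overlap. BAK1 was 0.42 ± 0.09 lower in pSCR(pSCRBRI1) than in pSCR on the log2 scale (adjusted p = 0.0011), with 50.3 to 64.6 CPM against 65.8 to 93.5 CPM and no overlap. BRL1 was 1.19 ± 0.33 lower in pSCR(pSCRBRI1) than in pSCR on the log2 scale (adjusted p = 0.0123), a call that missed without replicate 1 of pSCR at any 1 time or pSCR(pSCRBRI1) at 0 h replicate 1 (up to 0.116) and in a fit of these lines alone (0.0773). BKI1 was 1.17 ± 0.40 higher in pGL2(pGL2BRI1) than in pGL2 (adjusted p = 0.0236). Its highest levels there, 1.98 CPM at 0 h in replicate 2, 1.33 CPM at 3 h in replicate 1 and 1.83 CPM at 8 h in replicate 2, were in the 3 libraries with high endodermis sums, and the other 3 lay between 0.571 and 0.732 CPM. The BKI1 call missed without any 1 of those 3 libraries or pGL2 at 0 h replicate 1, 3 h replicate 2 or 8 h replicate 1 (up to 0.132), and without all 3 the difference was 0.32 (adjusted p = 0.655). BAK1 also differed between the libraries labelled pGL2(pSCRBRI1) and pSCR(pSCRBRI1) by 0.27 ± 0.09 (adjusted p = 0.028, 17.1% of genes passed), which missed with another scaling of library sizes (0.0631), with no filter (0.0896) and without any 1 of 11 of the 12 libraries, all but pSCR(pSCRBRI1) at 0 h replicate 2.

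The wider pathway was followed in 3 lists, chosen with earlier results of these data known, of which the first holds partners of the receptor complex. All 14 of its genes were tested, and over the 3 times against 35S 11 were higher and 2 lower in pGL2, with a median log2 change of 0.68 beside −0.15 over all genes. In pBRN2 5 were higher and 3 lower, in pSCR 3 and 3, and in pSHR 3 and 5. Over all genes 31.8% were higher and 39.3% lower in pGL2, 27.1% and 37.6% in pBRN2, 23.8% and 33.2% in pSCR, and 27.3% and 30.8% in pSHR. In pGL2 BIR2 (1.93 ± 0.12) and BIR1 (1.64 ± 0.12), receptor-like proteins that bind BAK1 and hold it from other receptors, were higher. OPS, a phloem membrane protein, was lower in pGL2 (−3.24 ± 0.22) and pSCR (−3.21 ± 0.22) and higher in pSHR (0.86 ± 0.19). BRS1, a secreted carboxypeptidase found through BRI1 signalling, was higher in pBRN2 (2.23 ± 0.19) and lower in pSCR (−2.27 ± 0.20) and pSHR (−2.52 ± 0.20).

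Of 22 downstream signalling genes, 21 were tested. In pGL2 11 were higher and 4 lower than in 35S (median 0.36 beside −0.15), in pBRN2 4 and 5, in pSCR 3 and 9 (median −0.20 beside −0.05), and in pSHR 7 and 2. These counts stand beside the same shares over all genes as for the partners. The kinases BSK7 (1.46 ± 0.09) and BSK6 (1.40 ± 0.13) were higher and the phosphatase BSU1 (−2.65 ± 0.57) lower in pGL2, while BSK6 was lower in pSCR (−1.65 ± 0.13). After BL, over the 5 Col-0 lines, 5 of 21 passed at 3 h and 3 at 8 h, beside 11.6% and 9.63% of all genes. BEH1 and BEH2, relatives of BZR1, fell by 2.04 ± 0.28 and 1.57 ± 0.14 at 3 h on the log2 scale, and BSK5 fell by 0.83 ± 0.12. BEH2 also fell over the bri1-116 lines, by 1.18 ± 0.19 at 3 h and 0.87 ± 0.18 at 8 h, with the libraries labelled pGL2(pSCRBRI1) included. Of the receptor complex partners 1 of 14 passed after BL in the Col-0 lines, the ubiquitin ligase PUB13 at 3 h (0.29 ± 0.09, adjusted p = 0.0418).

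Receptors for other ligands that use SERK co-receptors were tested for 11 of 14 genes. FLS2, the receptor of bacterial flagellin, was higher in pGL2 (2.99 ± 0.31) and lower in pSCR (−2.62 ± 0.49) and pSHR (−3.07 ± 0.48) than in 35S. SGN3, a receptor that guides the Casparian strip, was higher in pSCR (2.95 ± 0.40) and lower in pGL2 (−2.13 ± 0.41) and pSHR (−2.48 ± 0.41). PEPR2, a receptor of Pep peptides, was higher in pSHR (0.96 ± 0.17) and lower in pBRN2 (−2.25 ± 0.19), pGL2 (−2.22 ± 0.19) and pSCR (−1.91 ± 0.19). In the counts of this list, 3 were higher and 6 lower in pBRN2, 5 and 4 in pGL2, 3 and 4 in pSCR, and 2 and 4 in pSHR, out of 11 in each line and beside the same shares over all genes as for the partners. After BL in the Col-0 lines HAE, an abscission receptor, passed at 3 h (0.68 ± 0.21, adjusted p = 0.0363) and ER at 8 h (−1.37 ± 0.45, adjusted p = 0.0483).

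Likeness of pattern was described over the 15 group means of the Col-0 lines, as Pearson's r of log2 CPM. These points share libraries and lines, so r is given with no test. BRL2 and SERK1, both highest in the stele line, had r = 0.958. BRL1 and BAK1 ran opposite to each other (r = −0.943), as did SERK4 and BKI1 (r = −0.891). Among 5377 genes with a symbol and a mean of at least 8 CPM, the most like BRI1 was BRG3 (r = 0.965), followed by ARF10 and RGP2. The most like BRL2 was BHLH32 (r = 0.996), before TCP15 and PUP4, and the most like BAK1 was BEL10 (r = 0.989), before LIP1 and CDPK6. BRL3 had the lowest leading value, with KEA2 at r = 0.928. The leading genes were ESC for BRL1 (0.985), RXF12 for SERK1 (0.973), QS for SERK2 (0.949), YLS9 for SERK4 (0.979) and ZFP3 for BKI1 (0.971).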

How the data were processed

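Counts of reads per gene entry in 48 libraries were deposited by the authors as 1 table of raw counts. Per the submitters' processing notes, FastQC 0.10.1, TopHat2 2.0.9 and HTSeq 0.5.3p3 were used with TAIR10, and the labels' protocols name the TruSeq RNA v2 kit. Its libraries keep no strand information, so overlapping and antisense genes cannot be told apart. How reads shared by paralogs were treated was not given in the sources used here. In 21 libraries the labels say that the last base of 51-base reads was trimmed for low quality before mapping. This note is on all libraries of pSCR and all those labelled pGL2(pSCRBRI1), and on none of 35S, pBRN2 or pSHR. In pGL2, pGL2(pGL2BRI1) and pSCR(pSCRBRI1) it is on 1 library of each pair. In pGL2(pGL2BRI1) the libraries without the note are the same as those with high endodermis sums. Leaving out the libraries of high sum therefore leaves only libraries with the note in that line. Comparisons of pSCR with 35S, pBRN2 or pSHR thus also compare libraries with and without the note. As a term in the fit, its size rests on the lines that hold both kinds.

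Samples were grouped by the labels. All 48 libraries (24 groups of 2) entered 1 fit in edgeR 4.0.16 (R 4.3.3, limma 3.58.1) with TMM scaling, its filter on low counts, 1 mean per group and the quasi-likelihood test. P-values were adjusted by Benjamini-Hochberg within each of 82 planned and 6 later comparisons. Levels are counts scaled to library size (CPM), computed from the counts. The tested genes held at least 99.98% of counts in each library. Replicate numbers were tested for pairing by the correlation of deviations from group means.

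Alternatives were DESeq2 1.42.0, RLE scaling, no filter, a stricter filter (at least 1 CPM in at least 8 libraries), the replicate number as a block, the read note as a term, the compared groups alone, leaving out the libraries labelled pGL2(pSCRBRI1), leaving out each library and, added after seeing the data, blocking replicates within lines and leaving out libraries with high sums of another tissue's markers, over 5 times the lowest of their line. The refits without each library, or without those of high sums, reused the gene set and dispersion trend of the full fit, and a group left with 1 library is assumed to vary like the others. The fit was tested on simulated data, with the spread of each gene set by the trend over genes. For pBRN2 against 35S at 0 h, with 2 libraries each, it recovered 21 of 100 log2 changes of 1 and 97 of 100 of 2. For the average over the 5 Col-0 lines at 8 h it recovered 71 of 100 changes of 0.6 and 99 of 100 of 1. Members and gene lists were chosen with earlier results of these data known. Genes named are the 9 members, the 3 genes most like each in pattern, and up to 3 called genes with the largest change per list and comparison. Protein sequences were not used here.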

Additional observations from a re-analysis of the deposited data

How the results depend on the processing

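Of 149 member results that passed with edgeR, 0 reversed, 119 passed under each alternative that leaves out no single library, 107 without each library in turn and 104 under every alternative. Another 38 passed under an alternative only. The losses were 3 with RLE scaling, 11 with no filter, 4 with a stricter filter, 1 with DESeq2, 8 with the read note as a term, 17 in fits of the compared groups alone and, of 146 results, 15 without the libraries labelled pGL2(pSCRBRI1). Added after seeing the data, leaving out the 2 35S libraries of high green tissue sum lost 3 of 32 results that use them, with the BRI1 response over the Col-0 lines at −0.46 at 3 h (adjusted p = 0.0734), and leaving out the 3 pGL2(pGL2BRI1) libraries of high endodermis sum lost 5 of 11, with 1 member test of the BL response per line left of 2. In fits of the compared groups alone 4 member tests of the BL response per line passed, against 2 with all libraries. Without the libraries labelled pGL2(pSCRBRI1) edgeR called 0 member tests of the BL response over the bri1-116 lines, against 3 with them. The BRI1 response over the 5 Col-0 lines at 3 h was −0.53 with no filter (adjusted p = 0.072), −0.52 without the labelled libraries (0.0614) and −0.53 in a fit of these lines alone (0.0794). Averaged over all 8 lines, chosen after seeing the data, it was −0.29 at 3 h (0.139) and −0.28 at 8 h (0.173), and the cause was not tested.

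Leaving out each library in turn, the member tests that passed numbered 11 to 18 for the tissue lines against whole root at 0 h, 31 to 37 between tissue lines at 0 h, 67 to 71 over 3 times, 1 to 3 for BL per line, 3 to 6 over the Col-0 lines, 1 to 3 over the bri1-116 lines, 11 to 15 for bri1-116 against Col-0 lines, and 0 to 1 for response differences. Between tissue lines at 0 h, 37 of 54 member tests passed with all libraries. The share over all genes is not given for that family, so its count is not read as a result about the members. The BRI1 response over the Col-0 lines ranged from −0.67 to −0.33 at 3 h and from −0.73 to −0.41 at 8 h. Its difference from the bri1-116 lines with the same tag promoter ranged from −0.96 to −0.15 and from −0.88 to −0.10.

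Libraries with the same replicate number deviated together at every pair of times in 4 of 8 lines (pSCR, pBRN2, pSCR(pSCRBRI1) and the libraries labelled pGL2(pSCRBRI1), with correlations of 0.265 to 0.608), but not in the other 4 (−0.697 to 0.629) nor between the 5 Col-0 lines at 0 h (−0.0672 to 0.129), so the numbers are not taken as pairs across the study. With the replicate number as a block 1 of 149 results lost its call, and the BRI1 response over the Col-0 lines at 3 h was −0.54 (edgeR adjusted p = 0.0395). With replicates blocked within each line, added after seeing the data for the comparisons of times within lines, all 10 member results called there passed, BRI1 in 35S at 8 h passed as well (−1.10, adjusted p = 0.0472, against 0.263 with no block, in a line whose numbers did not pair), and the BRI1 response over the Col-0 lines was −0.52 (0.00417) at 3 h and −0.60 (0.00171) at 8 h. Of 216 member group means, 21 moved by more than 1 SD with RLE library sizes, by at most 5.51%. Depth limits BRL1 most, with 2 to 219 reads per library.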
